A study of Mus musculus with 6 samples.

Results

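The genes described here encode 8 transcription factors grouped under the identity of the Sertoli cell, the somatic nurse cell of the seminiferous tubule. Other testicular cells share some of the 8, which are Sox9, Sox8, Wt1, Gata1, Gata4, Gata6, Dmrt1 and Tcf21. They were taken by gene name from the 28262 genes of the count table, in which each of the 8 names had 1 row. Sertoli cells of 20-day-old C57BL/6 males were isolated and profiled by RNA-seq, with 3 Pa1F/F libraries (genotype PA1flox/flox) as the control and 3 Pa1-/- libraries. In the Pa1-/- mice, Cre recombinase driven by the Amh promoter, which is active in Sertoli cells, removed the floxed Pa1 gene. Both groups therefore derived from the floxed allele, whereas Cre is named for the knockout only, so that the loss of PA1 and the presence of Cre cannot be told apart. All cells were cultured without treatment at 34 °C in 5% CO2, and germ cells that did not attach were washed off. Pa1 itself was not analysed here, so the genotypes are those given in the labels.

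PA1 is a subunit of the MLL3/4 histone methyltransferase complexes, which mark enhancers of active genes. The comparison asks how the genes of the Sertoli cell's own transcription factors were expressed once it was lost. SOX9 acts directly downstream of the sex-determining factor SRY and starts Sertoli differentiation, and SOX8 is its close relative of the SoxE group, with overlapping functions. GATA4, GATA6 and GATA1 are zinc finger proteins that bind the same core motif, WT1 is a zinc finger protein needed from the earliest gonad onwards, and DMRT1 is a DM domain protein that keeps the postnatal Sertoli cell from taking an ovarian fate. TCF21 is a basic helix-loop-helix protein of gonadal progenitors and interstitial mesenchyme.

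The libraries held between 13203757 and 16231443 counts, so that a count of 3, taken as the limit that a count of 0 allows, corresponded to 0.185 to 0.227 CPM (counts scaled to the size of the library); such limits cover counting error only. Values below are counts normalized by the trimmed mean of M values (TMM), which takes most genes as unaltered. Fold changes, standard errors (SE) and Benjamini-Hochberg adjusted p-values come from edgeR's quasi-likelihood test over 14919 genes. The methods of the study call the libraries biological replicates, but neither they nor the labels say whether each came from separate animals or cultures, so the p-values measure the spread between these libraries. In each group 1 library stood apart: Pa1F/F replicate 2 differed from the others of its group by 0.470 and 0.475 (root mean square difference in log2 CPM) against 0.267 between those, and Pa1-/- replicate 3 by 0.563 and 0.567 against 0.285. Of 18 Sertoli cell markers, 16 were tested, 5 of them were lower and 3 higher in Pa1-/- cells (9 and 5 without Pa1-/- replicate 3, and 3 lower without any one of the libraries other than that and Pa1F/F replicate 2). The summed level of the 18 was 20760 to 21809 CPM in Pa1F/F and 13419 to 18071 CPM in Pa1-/- libraries, more of it from Clu, which was lower, than from all other markers together. Cst9, Nxt2 and Cst12 were higher, and Dhh, Fshr and Defb36 were among those not called. The Sertoli markers Trf and Rhox5 stayed at no more than 15.5 normalized counts in every library. Transcripts of other testicular cells were present too, and in bulk RNA fewer cells of a type and less RNA per cell cannot be told apart.

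All 8 transcription factor genes passed the filter on low counts, and they did not move in a common direction. Sox8 and Gata4 were lower in Pa1-/- cells, that is, 2 of 8 genes, where 17.1% of all tested genes were called lower. Dmrt1 alone was called higher, 1 of 8 genes against 18.2% of all tested genes. Sox8 was the 1 member that also passed an absolute log2 fold change of 1, a criterion met by 12.0% of all tested genes. The normalized counts of the groups did not overlap for 3 of the 8 genes, against 52.4% of all tested genes. The median log2 fold change was -0.02 over the 8 genes and 0.00 over all tested genes. With 8 genes, these counts lie near or below the shares of the whole transcriptome. An exact two-sided permutation test of 3 against 3 libraries cannot go below p = 0.1, and it gave 0.1 for Sox8, Gata4 and Dmrt1.

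**Figure D1:**
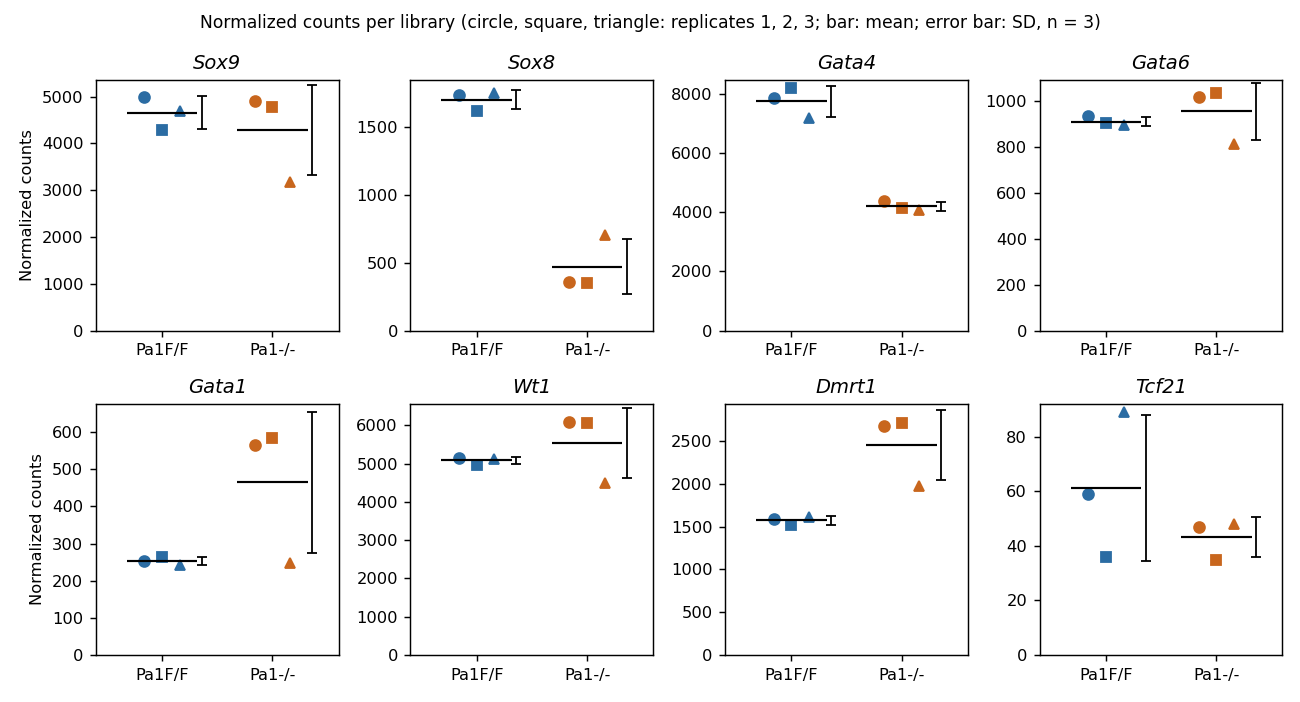
Normalized counts (y axis, from 0) of the 8 transcription factor genes in each of the 3 Pa1F/F (blue) and 3 Pa1-/- (orange) libraries, with the mean as a horizontal bar and the SD (n = 3) beside it. The groups are separate for Sox8, Gata4 and Dmrt1, and in Pa1-/- cells replicate 3 (triangle) lies apart from replicates 1 and 2 for most genes.

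The SoxE pair divided, with Sox8 reduced and Sox9 not called. Sox8 (ENSMUSG00000024176, GRCm38 chr17:25565892-25570686, minus strand) had 1734, 1619 and 1750 normalized counts in Pa1F/F replicates 1 to 3 and 358, 350.4 and 706 in Pa1-/- replicates 1 to 3. Every Pa1-/- library was below every Pa1F/F library, and Pa1-/- replicate 3 was the highest of its group. The means were 1701 ± 71.8 and 472 ± 203 (SD, n = 3), a 3.61-fold lower level, with a log2 fold change of -1.85 (SE 0.27, 95% confidence interval -2.49 to -1.21, adjusted p = 0.00294). The coefficient of variation in Pa1-/- cells was 43.1%.

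Sox9 (ENSMUSG00000000567, chr11:112782224-112787760, plus strand) had 4983, 4290 and 4688 normalized counts in Pa1F/F libraries and 4904, 4786 and 3172 in Pa1-/- libraries. The first 2 Pa1-/- replicates fell inside the control range and replicate 3 below it. The log2 fold change was -0.12 (SE 0.17, 95% confidence interval -0.51 to 0.27, adjusted p = 0.613), an interval that leaves room for a modest difference either way. Compared per length of transcript, Sox9 exceeded Sox8 by 2.27, 2.09 and 2.12 times in Pa1F/F libraries and by 10.8, 10.8 and 3.55 times in Pa1-/- libraries. Sox8 thus supplied 31.7% ± 0.946 of the summed Sox8 and Sox9 level in control cells and 13.0% ± 7.81 in Pa1-/- cells (SD, n = 3), with 8.47%, 8.48% and 22.0% in the single Pa1-/- libraries. The shares of the groups did not overlap (exact permutation p = 0.1, the smallest possible).

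Upstream sequence was looked up because Sox8 changed most and shares its 5′ flank with another transcription unit. Entries of RefSeq's promoter set (GRCm38.p6, the build of the counts) were used for 3 of the 8 genes, namely Sox8, Gata1 and Tcf21. Gata6 was left out of this search, so whether it has an entry is not given here. The 250 bases before the Sox8 start (chr17:25570687-25570936, minus strand, 65.6% G and C, where the median of all 32817 windows was 52.4%) are given 5′ to 3′ with the GC boxes GGGCGG and the palindromic E-box CACGTG in capitals, searched on both strands.
Sox8: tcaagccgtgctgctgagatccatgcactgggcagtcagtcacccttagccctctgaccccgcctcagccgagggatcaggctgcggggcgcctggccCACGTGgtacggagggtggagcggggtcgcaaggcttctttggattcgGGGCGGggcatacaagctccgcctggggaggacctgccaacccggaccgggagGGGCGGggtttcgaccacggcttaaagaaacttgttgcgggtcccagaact
The window held 2 GC boxes and 1 E-box, motifs found in 32.7% and 6.02% of all windows of this length. The GATA motif AGATAA, present in 9.99% of windows, did not occur in it on either strand. Neither did the AP-1 motif TGACTCA, present in 4.46% of windows, nor the SOX motif AACAAT, present in 9.42% of windows. These matches describe the letters of the window only.

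The start of 2810468N07Rik, a noncoding transcript on the opposite strand, lies 125 bases from the Sox8 start and thus within the printed window. It was singled out after its values were seen, as were Wt1os and BC006965 below, since none of them overlaps the gene beside it. It had 119, 104 and 120 normalized counts in Pa1F/F and 63.4, 64.2 and 77.2 in Pa1-/- libraries. The groups did not overlap, and the transcript was lower in Pa1-/- cells (log2 fold change -0.74, SE 0.15, adjusted p = 0.0103). Its reads amounted to 6.84%, 6.40% and 6.83% of those of Sox8 in control libraries and to 17.7%, 18.3% and 10.9% in Pa1-/- libraries. Whether the counting used strand is not stated in the sources used here, and reads that extend from one transcript past its annotated start cannot be assigned. BC006965, which starts 248 bases from Sox9 on the opposite strand, had 14.5, 17.4 and 16.8 normalized counts in Pa1F/F and 18.5, 11.3 and 21.0 in Pa1-/- libraries, with overlapping groups (adjusted p = 0.870).

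**Figure D2:**
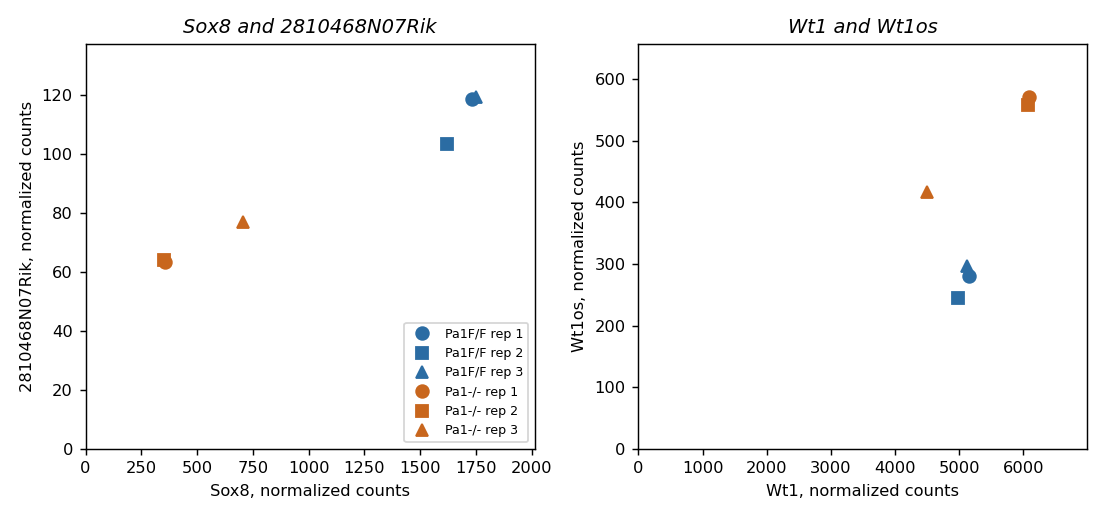
Normalized counts of Sox8 against its divergent neighbour 2810468N07Rik (left) and of Wt1 against Wt1os (right), both axes from 0, 1 point per library, with Pa1F/F in blue and Pa1-/- in orange (circle, square, triangle: replicates 1, 2, 3). Both transcripts of the Sox8 pair sit lower in all Pa1-/- libraries, whereas Wt1os sits higher (416 to 571 against 244 to 296) while the Wt1 values overlap.

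The GATA genes gave 1 reduced gene, Gata4. Gata4 (ENSMUSG00000021944, chr14:63198922-63271692, minus strand), whose product activates Amh and other Sertoli genes, had 7857, 8182 and 7162 normalized counts in Pa1F/F libraries and 4371, 4136 and 4084 in Pa1-/- libraries. All 3 Pa1-/- values lay close together and below every control value. The means of 7734 ± 521 and 4197 ± 153 (SD, n = 3) differed 1.84-fold, with a log2 fold change of -0.88 (SE 0.07, 95% confidence interval -1.05 to -0.72, adjusted p = 0.000325). It was the member with the smallest SE of the 8.

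GATA4 is also made by Leydig cells. The Leydig list moved with Gata4: of 7 markers 3 were tested and all 3 were lower, and their summed level was 794 to 911 CPM in Pa1F/F and 165 to 288 CPM in Pa1-/- libraries. The bulk of it came from Star and Cyp11a1, which other steroidogenic cells share, while the Leydig-defining Insl3 and Cyp17a1 stayed at no more than 3 counts in every library. Of the macrophage markers 4 of 5 tested were lower (summed level 51.3 to 65.4 CPM in Pa1F/F and 9.16 to 11.2 CPM in Pa1-/- libraries). Of the endothelial markers 2 of 3 tested, Cdh5 and Pecam1, were lower (116 to 121 against 62.1 to 99.9 CPM, most of it from Cdh5), while Kdr was not called, with 80.04, 74.4 and 485 normalized counts in Pa1-/- against 62.5 to 99.7 in Pa1F/F libraries. Their part in the Gata4 result was not tested.

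Gata6 (ENSMUSG00000005836, chr18:11052510-11085635, plus strand), active in Sertoli and Leydig cells, had 933, 904 and 896 normalized counts in Pa1F/F and 1020, 1035 and 814 in Pa1-/- libraries. The 3 Pa1-/- values lay on both sides of the narrow control range. The log2 fold change was 0.07 (SE 0.10, 95% confidence interval -0.17 to 0.31, adjusted p = 0.625). The long noncoding RNA 1010001N08Rik overlaps its first 58 bases on the opposite strand and had 28.1 to 54.7 normalized counts over the 6 libraries.

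Gata1 (ENSMUSG00000031162, chrX:7959260-7978071, minus strand), best known as the master regulator of red blood cells and also expressed by prepubertal Sertoli cells, had 254, 264 and 242 normalized counts in Pa1F/F libraries. In Pa1-/- libraries it had 565, 585 and 246. Replicates 1 and 2 lay above every control value and replicate 3 lay within the control range. The log2 fold change of 0.88 (SE 0.31, 95% confidence interval 0.14 to 1.61) did not pass the test across all genes (unadjusted p = 0.0254, adjusted p = 0.0655, edgeR). Without Pa1-/- replicate 3 it was 1.18 (adjusted p = 7.13e-05), a fit in which the spread of the knockout rests on 2 libraries, and DESeq2 on all libraries gave 0.88 with adjusted p = 0.0145.

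Since red cell precursors transcribe Gata1 as well, their markers are given with it. Of 9 erythroid and megakaryocyte markers 5 had a row and 2 were tested, and the summed level was 5.42 to 7.97 CPM in Pa1F/F and 10.3 to 45.3 CPM in Pa1-/- libraries. The highest sum was that of Pa1-/- replicate 3, in which Gata1 was at the control level. It came from Alas2, the first enzyme of haem synthesis in red cells, with 135, 148 and 632 normalized counts in Pa1-/- libraries against 50.3 to 67.1 in Pa1F/F libraries, while Klf1 did not exceed 10.02 normalized counts in any library. Of the 2 tested markers, Alas2 was higher and the platelet gene Itga2b was not called (log2 fold change -0.48). The Alas2 call was lost when any one of the Pa1F/F libraries was left out and in limma-voom. It was also lost with the replicate number as a block and with close replicates summed. Pf4, too low to be tested, had 7.25, 31.95 and 6.29 normalized counts in Pa1F/F and 0, 0 and 1.002 in Pa1-/- libraries. The 4 globin genes of the list were not analysed here.

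In the mouse, Sertoli cells use a distal first exon of Gata1, far upstream of the one used in red cells. The RefSeq promoter window (chrX:7967911-7968160, minus strand) ends 10161 bases inside the 5′ end of the gene as deposited, and the counts per gene do not tell the first exons apart. It is shown for comparison with the window of Sox8, with the 1 GC box in capitals.
Gata1: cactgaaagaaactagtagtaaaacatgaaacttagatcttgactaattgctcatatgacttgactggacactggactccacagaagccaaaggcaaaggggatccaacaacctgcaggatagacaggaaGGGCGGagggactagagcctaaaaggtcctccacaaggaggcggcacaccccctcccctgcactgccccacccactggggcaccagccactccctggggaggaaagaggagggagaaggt
Its share of G and C was 54.0%, against 65.6% in the window of Sox8, and none of the other motifs searched occurred in it. The window of Tcf21, not printed, had 52.4% G and C and held 1 GATA motif AGATAA and none of the other motifs.

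Per length of transcript, Gata4 made up 84.6% ± 0.601 of the summed level of Gata4, Gata6 and Gata1 in Pa1F/F and 69.0% ± 6.00 in Pa1-/- cells (SD, n = 3). The share of Gata1 was 6.20% ± 0.128 and 16.6% ± 5.57, and that of Gata6 was 9.22% ± 0.504 and 14.4% ± 0.502. In each Pa1-/- library the share of Gata1 was above the control libraries, with 19.2%, 20.4% and 10.2%. The summed level of the GATA genes was 146 ± 8.84 RPKM (CPM per kilobase of transcript) in Pa1F/F and 97.9 ± 10.3 RPKM in Pa1-/- cells. A share rises when another member falls, and these shares carry the fall of Gata4.

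**Figure D3:**
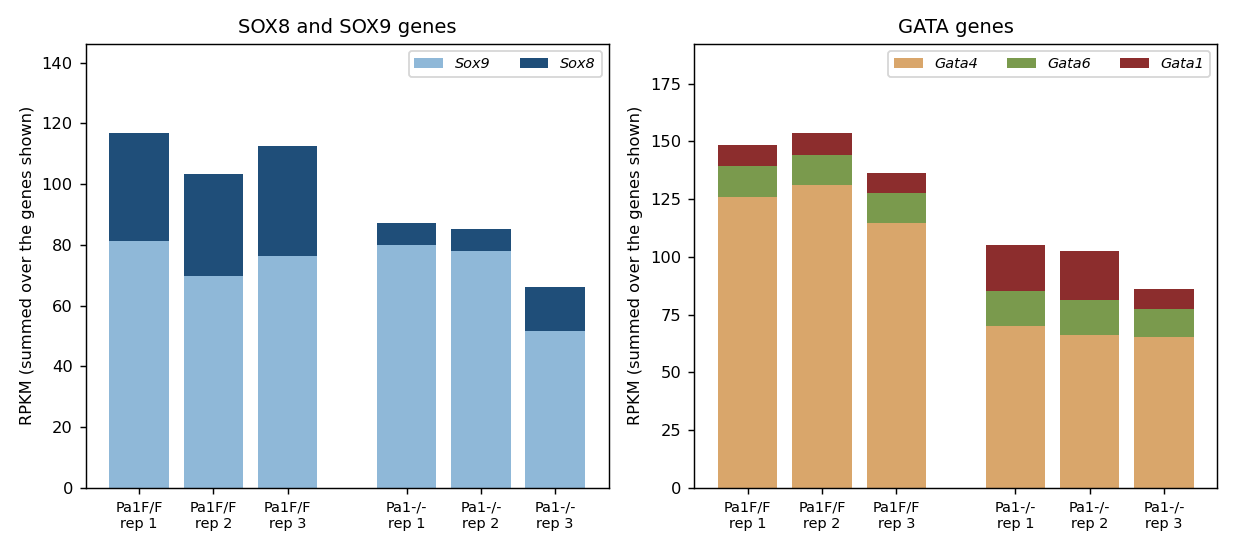
Stacked RPKM (y axis, from 0) of Sox9 and Sox8 (left) and of Gata4, Gata6 and Gata1 (right) in each of the 6 libraries. The Sox8 and Gata4 segments are smaller in all Pa1-/- libraries, and the Gata1 segment is largest in Pa1-/- replicates 1 and 2.

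Wt1 (ENSMUSG00000016458, chr2:105126529-105173616, plus strand) had 5155, 4976 and 5119 normalized counts in Pa1F/F libraries and 6084, 6063 and 4493 in Pa1-/- libraries. Replicates 1 and 2 of Pa1-/- lay above the control range and replicate 3 below it. The log2 fold change was 0.13 (SE 0.12, 95% confidence interval -0.16 to 0.41, adjusted p = 0.449). Without Pa1-/- replicate 3 it was 0.26 (adjusted p = 0.00180), so that library decided the call. Mesothelial cells, which cover the testis, express Wt1 too. Of 8 mesothelial markers 6 were tested and 4 were higher, with a summed level of 7.18 to 12.5 CPM in Pa1F/F and 31.5 to 40.4 CPM in Pa1-/- libraries. Upk3b gave the largest share of the latter, while Msln and Upk1b were not called. Their part in the Wt1 values was not tested.

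Wt1os, the antisense RNA that begins 19 bases from the Wt1 start and runs away from it, had 281, 244 and 296 normalized counts in Pa1F/F libraries. It had 571, 558 and 416 in Pa1-/- libraries, above the controls in all 3. Wt1os was higher in Pa1-/- cells (log2 fold change 0.91, SE 0.15, adjusted p = 0.00419). Its reads amounted to 5.45%, 4.90% and 5.78% of those of Wt1 in Pa1F/F and to 9.39%, 9.20% and 9.26% in Pa1-/- libraries, a log2 difference of 0.79 (exact permutation p = 0.1). This ratio was alike in the 3 Pa1-/- libraries, including replicate 3, in which both transcripts were lowest of the group.

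Dmrt1 (ENSMUSG00000024837, chr19:25505618-25604329, plus strand) was the member that rose. It had 1595, 1515 and 1615 normalized counts in Pa1F/F libraries and 2676, 2712 and 1980 in Pa1-/- libraries. The groups did not overlap, and Pa1-/- replicate 3 was the lowest of its group. Means of 1575 ± 52.8 and 2456 ± 412 (SD, n = 3) gave a 1.56-fold higher level and a log2 fold change of 0.64 (SE 0.12, 95% confidence interval 0.35 to 0.93, adjusted p = 0.00766). Spermatogonia also transcribe Dmrt1. Of 9 spermatogonial markers 4 were tested and 3 were lower, with a summed level of 193 to 222 CPM in Pa1F/F and 104 to 200 CPM in Pa1-/- libraries. Nearly all of that sum was Uchl1 (1454 to 3470 counts per library), the tested marker that was not called. Kit, Gfra1 and Ddx4, the 3 that were lower, had at most 46 counts in a library. Zbtb16, Stra8, Sohlh1 and Sohlh2 had no more than 3 counts in any library. Dazl, too low to be tested, had 7.25, 7.75 and 16.8 normalized counts in Pa1F/F and 8.79, 6.76 and 45.1 in Pa1-/- libraries.

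Tcf21 (ENSMUSG00000045680, chr10:22817281-22820174, minus strand) was the least abundant member. It had 58.9, 35.8 and 89.1 normalized counts in Pa1F/F and 46.9, 34.9 and 48.1 in Pa1-/- libraries, and the spread among the controls covered 2 of the 3 Pa1-/- values. The log2 fold change of -0.49 (SE 0.35, 95% confidence interval -1.31 to 0.33, adjusted p = 0.305) did not exceed the spread between libraries, which held between 31 and 85 reads of the gene and varied among the controls with a coefficient of variation of 43.6%. Interstitial mesenchyme, a site of Tcf21 expression, was represented by Col1a1, Col1a2 and others, with 2 of 7 tested markers lower (4 without Pa1-/- replicate 3, 1 without any other single library) and 1 higher and a summed level of 3625 to 4504 CPM in Pa1F/F and 2207 to 4135 CPM in Pa1-/- libraries. The antisense gene AC153369.1 covers all 2894 bases of Tcf21 and had at most 8 counts in a library.

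**Figure D4:**
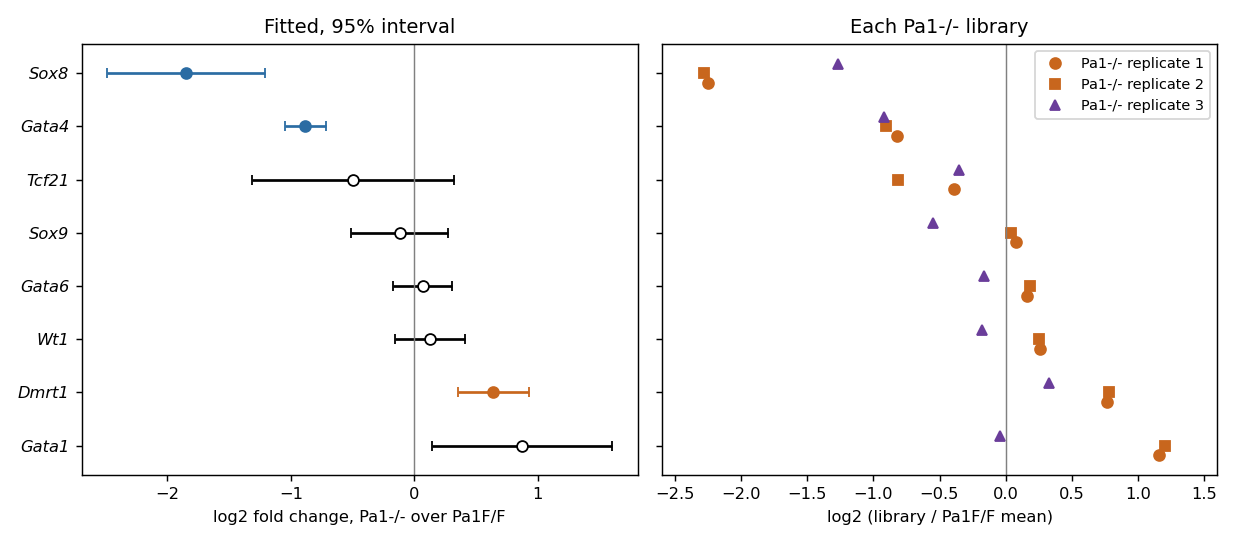
Left, fitted log2 fold change (Pa1-/- over Pa1F/F) of the 8 genes with its 95% confidence interval, filled and coloured where the adjusted p was under 0.05; right, log2 ratio of each Pa1-/- library to the Pa1F/F mean. Replicates 1 and 2 lie close together except for Tcf21, and replicate 3 lies farthest from them for Gata1 and Sox8 (log2 ratios to their mean of -1.22 and 0.996).

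Levels of the member genes were compared with each other only in RPKM. In Pa1F/F cells the order was Gata4 (124 ± 8.33 RPKM), Wt1 (103 ± 1.93), Sox9 (75.8 ± 5.66), Dmrt1 (45.8 ± 1.53), Sox8 (35.1 ± 1.48), Gata6 (13.5 ± 0.291), Gata1 (9.06 ± 0.394) and Tcf21 (2.54 ± 1.11; SD, n = 3), and no 2 neighbours overlapped. In Pa1-/- cells Wt1 came first (113 ± 18.6 RPKM), followed by Dmrt1 (71.4 ± 12.0), Sox9 (69.8 ± 15.8) and Gata4 (67.2 ± 2.45). Among the latter group, Dmrt1 overlapped Sox9 and Sox9 overlapped Gata4. Gata1 (16.6 ± 6.79), Gata6 (14.1 ± 1.83) and Sox8 (9.73 ± 4.19) formed a further run of overlapping neighbours, and Tcf21 was last (1.79 ± 0.301). Among 14787 tested genes with a known length, Sox8 stood at percentile 86.3 in Pa1F/F and 57.3 in Pa1-/- cells, Gata4 at 97.4 and 93.9, and Dmrt1 at 90.3 and 94.4.

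Pa1-/- replicate 3 lay outside the range of replicates 1 and 2 for all 8 genes. Relative to their mean it was higher for Sox8 (log2 ratio 0.996) and Tcf21 (0.23), and lower for Gata1 (-1.22), Sox9 (-0.61), Dmrt1 (-0.44), Wt1 (-0.43), Gata6 (-0.34) and Gata4 (-0.06). Compared with the Pa1F/F mean, replicates 1 and 2 together had log2 ratios of -2.26 for Sox8, -0.86 for Gata4 and 0.77 for Dmrt1, and replicate 3 had -1.27, -0.92 and 0.33. The 3 called genes thus kept their direction in every Pa1-/- library, and Gata4 also its size. Replicate 3 differed in markers of contractile cells as well: Myh11 had 1605 normalized counts in it, 164 and 216 in the other Pa1-/- libraries and 481 to 649 in Pa1F/F libraries. The summed peritubular myoid level was 222 to 283 CPM in Pa1F/F and 828 to 1268 CPM in Pa1-/- libraries, most of it from Acta2, the 1 of 5 tested markers that was called higher. Without Pa1-/- replicate 3, 3 markers of this list were called lower, against 0 with it in edgeR, DESeq2 and limma-voom, where all 5 fitted log2 fold changes in edgeR were above 0. Its part in the values of the 8 genes was not tested.

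For each called gene, the nearest profile was sought among 11718 tested genes by the Euclidean distance of centred log2 CPM over the 6 libraries. It was Plxna4 for Sox8 (distance 0.230), Osbpl7 for Gata4 (0.0852) and Diaph1 for Dmrt1 (0.0777). Plxna4, a semaphorin receptor, had 456 to 528 normalized counts in Pa1F/F and 102, 117 and 223 in Pa1-/- libraries, a likeness that its selection by profile fixed.

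Other transcription factors of the gonad moved in both directions. Of 18 listed genes 13 were tested, 4 were lower and 1 was higher, with a median log2 fold change of -0.30, where 17.1% and 18.2% of all tested genes were lower and higher. Pa1-/- replicate 3 decided part of these calls: without it 8 were lower and 4 higher, while the counts over all genes grew from 2548 to 3257 lower and from 2718 to 3360 higher. Nr0b1 (DAX1), a nuclear receptor that counteracts SF1, had 341, 212 and 406 normalized counts in Pa1F/F libraries and 13.7, 24.8 and 4.01 in Pa1-/- libraries (log2 fold change -4.51, SE 0.50, adjusted p = 0.00107). This was the largest change on the list, and replicate 3 was here the lowest. Nr5a1 (SF1), the nuclear receptor that drives steroidogenic and Sertoli genes, was lower by a small margin (log2 fold change -0.41, SE 0.06, adjusted p = 0.00374). Emx2 (-1.46, adjusted p = 0.00992), a homeodomain factor of the early gonad, was lower too.

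Cbx2, a Polycomb protein that acts upstream of Sry, was higher, with 119, 95.9 and 109 normalized counts in Pa1F/F and 179, 177 and 203 in Pa1-/- libraries (log2 fold change 0.79, SE 0.13, adjusted p = 0.00477). The GATA cofactor gene Zfpm1 was not called (0.13, adjusted p = 0.199), and neither was Zfpm2 (-0.29, adjusted p = 0.213).

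No paralog or dimer partner passed edgeR's test as higher in Pa1-/- cells, and 1, Id4, had an unadjusted p under 0.05 in that direction and was called higher by DESeq2. Id4, a dominant-negative helix-loop-helix protein, had 9.68 to 18.1 normalized counts in Pa1F/F and 31.2, 27.0 and 128 in Pa1-/- libraries (log2 fold change 2.09, SE 0.68, adjusted p = 0.0520, edgeR). Without Pa1-/- replicate 3 the log2 fold change was 1.002 (adjusted p = 0.0449), and edgeR also called Id4 without the filter on low counts (adjusted p = 0.0189) and without Pa1-/- replicate 1 or 2 (adjusted p = 0.0489 and 0.0382). Of 21 paralogs and dimer partners 12 were tested, and 2 were lower (7 without Pa1-/- replicate 3 and 4 in DESeq2), with a median log2 fold change of -0.45. The share of all tested genes called lower was 17.1%. Sox10, the third SoxE gene, stayed between 1.05 and 7.25 normalized counts, and Gata2 and Gata3 did not exceed 13.6. Among the DM domain genes, Dmrta1 was lower (log2 fold change -0.55, SE 0.10, adjusted p = 0.00714) and Dmrt3 was not called (-0.02, adjusted p = 0.921). Of the E proteins with which TCF21 pairs on DNA, Tcf4 was lower (-1.14, SE 0.12, adjusted p = 0.000911), while Tcf12 (-0.08, adjusted p = 0.395) and Tcf3 (0.05, adjusted p = 0.689) were not called.

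Genes on which these factors are known to act in the testis included lower and higher ones. Of 16 listed 14 were tested, 4 were lower and 2 higher, with a median log2 fold change of -0.15. Among all tested genes 17.1% were lower and 18.2% higher. Without Pa1-/- replicate 3 the counts of the list were 8 and 2. The inhibin alpha and beta B subunit genes, Inha and Inhbb, were both lower. Inha had 6542, 6199 and 5570 normalized counts in Pa1F/F and 2206, 2580 and 2998 in Pa1-/- libraries (log2 fold change -1.23, SE 0.12), and Inhbb had 2287, 2039 and 2070 against 999, 920.4 and 1273 (SE 0.12, adjusted p = 0.00162). Gja1, which encodes the gap junction protein connexin 43, was lower (-1.66, SE 0.25), and so was Aard by a small margin (-0.27, SE 0.07, adjusted p = 0.0246). Higher were the neuregulin receptor gene Erbb4 (1.98, SE 0.24) and the collagen gene Col9a3 (1.73, SE 0.43, adjusted p = 0.0204). Col9a3 had 106, 131 and 81.8 normalized counts in Pa1F/F and 231, 224 and 605 in Pa1-/- libraries, with replicate 3 far above the others.

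Amh, the hormone gene that SOX9, GATA4, WT1 and SF1 activate and whose promoter drives the Cre, had 186, 254 and 179 normalized counts in Pa1F/F libraries. In Pa1-/- libraries it had 43.9, 48.4 and 365, so that replicates 1 and 2 were below all controls and replicate 3 above them (adjusted p = 0.698, edgeR). Without replicate 3 the log2 fold change of Amh was -2.16 (adjusted p = 0.000291). Dhh (log2 fold change 0.00, adjusted p = 0.978) and Fshr (0.07, adjusted p = 0.801) were not called.

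The genes of the ovarian programme, which SOX9 and DMRT1 hold down in the testis, showed no common direction. Of 13 listed 6 were tested, 2 were lower and 2 higher (3 and 2 without Pa1-/- replicate 3). The shares of all tested genes were 17.1% lower and 18.2% higher. Foxl2, the granulosa cell factor that DMRT1 represses, had 7.34 to 9.68 normalized counts in Pa1F/F and 0.976 to 2.25 in Pa1-/- libraries, too few to be tested. Wnt4, a signal of the ovarian pathway, was higher, with 189, 196 and 153 normalized counts in Pa1F/F and 486, 505 and 990 in Pa1-/- libraries (log2 fold change 1.88, SE 0.30, adjusted p = 0.00392). Bmp2 was also higher (3.38, SE 0.61, adjusted p = 0.00618), with its lowest Pa1-/- value, 62.1, in replicate 3. Esr1 (-0.996, SE 0.19, adjusted p = 0.00713) and Runx1 (-0.80, SE 0.10, adjusted p = 0.00142), which fetal granulosa cells require, were lower.

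**Figure D5:**
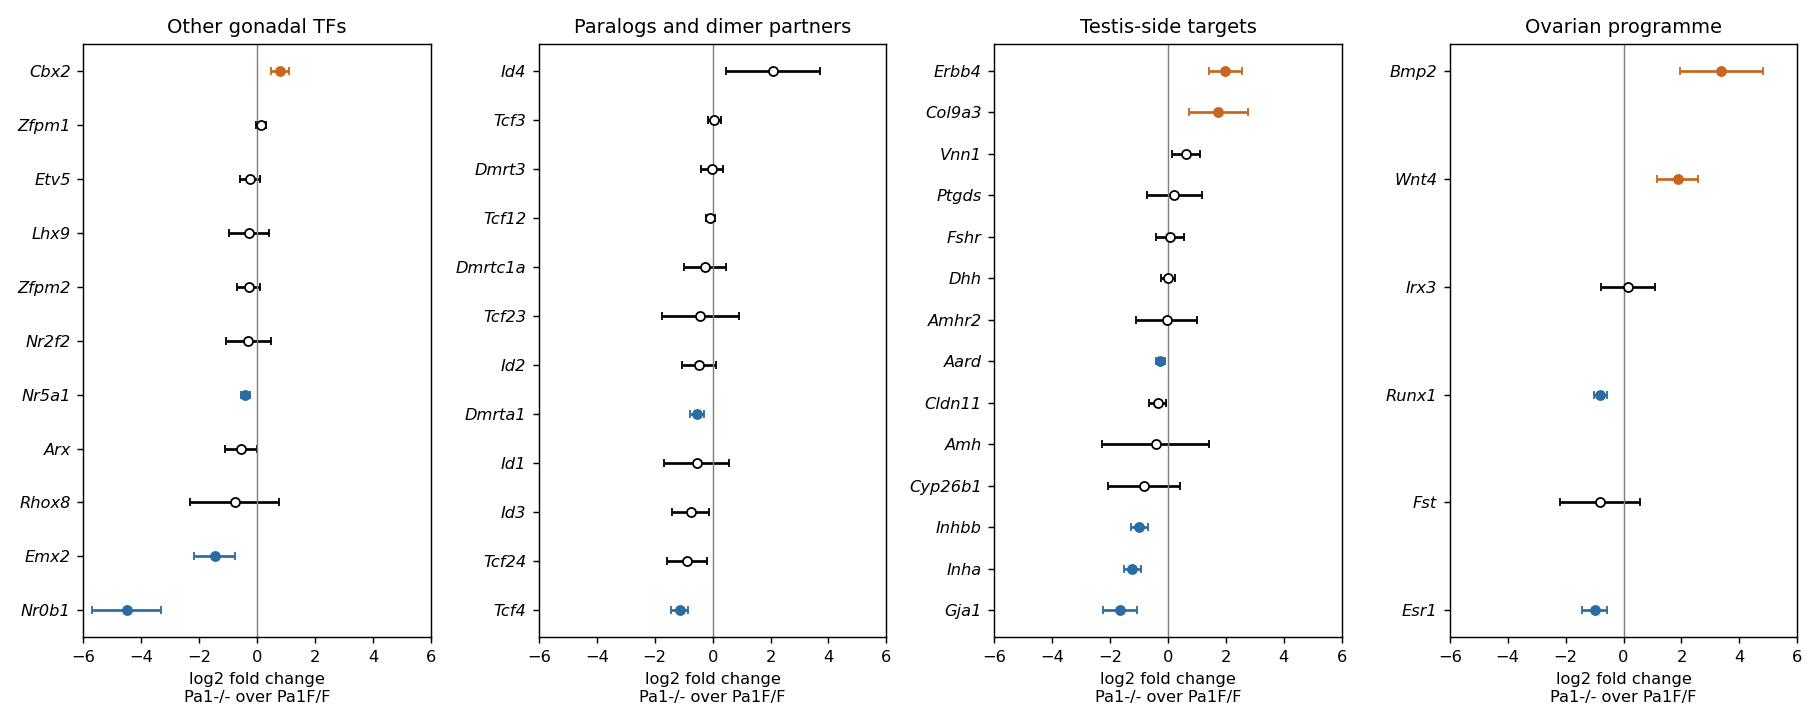
Fitted log2 fold change (x axis, Pa1-/- over Pa1F/F) with its 95% confidence interval for the genes of 4 lists that were tested and are reported here, with called genes filled (blue lower, orange higher; adjusted p under 0.05) and the others open. Each list holds genes on both sides of 0, and the largest fall is that of Nr0b1 (-4.51).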

How the data were processed

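RNA-seq libraries of isolated Sertoli cells (3 Pa1F/F, 3 Pa1-/-) were grouped by their labels. Per the methods of the study, the authors prepared libraries with the NEBNext Ultra kit, aligned reads to GRCm38 with HISAT2 2.1.0 and obtained counts per gene with HTSeq 0.6.0, which were deposited as raw numbers. The table also holds the authors' comparison of the groups (a mean signal per gene, a fold ratio, its log2 value, a p-value and an adjusted p-value), none of which was used. Near-identical gene copies share reads in such counts.

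Counts were tested with edgeR 4.0.16 in R 4.3.3 (filterByExpr with minimum count 10 and minimum total 15, TMM, quasi-likelihood F-test, Benjamini-Hochberg over 14919 genes). The authors name DEGseq, which was not used here. A gene was called at an adjusted p under 0.05, and the study's criterion adds a log2 fold change of 1 or more in size. RPKM used the canonical transcript length of GENCODE M39 as a length only. In a simulation of this comparison, 200 genes averaging 50 normalized counts or more were changed by a log2 fold change of 2. A simulated call required both an adjusted p under 0.05 and a log2 fold change of 1 or more in size. Under that rule 98% of the changed genes were recovered among 14672 tested genes, and 3.45% of the calls were unchanged genes. These rates do not describe calls made on the adjusted p alone. DESeq2 1.42.0, limma 3.58.1, other scalings and filters, a binomial test, summed replicates and left-out libraries were tried as alternatives.

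The 8 genes and the 15 further lists (141 of 151 genes had a row) were chosen with earlier results of these data known. Named were the 8 genes, called genes of the lists on gonadal factors, testis targets and the ovarian programme, other list genes where a role is described, genes overlapping a member, and the nearest profile of each called member among genes averaging 50 normalized counts or more. Some genes of the lists enter the counts but are not reported here by name. Python 3.11.15 was used for tables and plots.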

Additional observations from a re-analysis of the deposited data

How the results depend on the processing

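Gata4 kept its direction and its call under every alternative, with log2 fold changes of -0.93 to -0.84 when single libraries were left out. Sox8 (-2.26 to -1.66) and Dmrt1 (0.58 to 0.78) kept theirs in the same fits, and lost the call only when the 2 closest replicates of each group were summed, which leaves 2 libraries per group (-1.65, adjusted p = 0.0573, and 0.60, adjusted p = 0.0931). That fit called 1 member lower, 0 higher and 0 past the fold threshold, as well as 674 lower and 708 higher genes in all, against 2548 and 2718.

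Left-out libraries gave 2 members lower in every fit, 1 to 4 higher and 1 to 2 past the fold threshold. The 4 higher and 2 past the threshold were those without Pa1-/- replicate 3, where Sox9 reversed to 0.060 (adjusted p = 0.488) and Wt1 (0.26), Gata1 (1.18) and Gata6 (0.18, adjusted p = 0.0413) were called. The ranges over single left-out libraries were -0.22 to 0.060 for Sox9, 0.058 to 0.26 for Wt1, 0.69 to 1.18 for Gata1, 0.024 to 0.18 for Gata6 and -0.77 to -0.13 for Tcf21. Leaving out Pa1F/F replicate 2 and Pa1-/- replicate 3 together, chosen after seeing the data, also gave 4 higher and 2 past the threshold, with Wt1 at 0.24, Gata1 at 1.21, Gata6 at 0.16 (adjusted p = 0.0188) and Tcf21 at -0.83 (adjusted p = 0.00647).

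Gata1 passed without the filter on low counts (0.90, adjusted p = 0.0245) and in DESeq2 (0.88), so that both called 2 members higher; the cause was not tested. The binomial test, which takes counting error only, called 4 members lower and 3 higher, adding Sox9 (-0.12), Tcf21 (-0.47), Wt1 (0.12) and Gata1 (0.86), and 5184 lower and 5203 higher genes in all. Replicate numbers did not pair the libraries (correlations of same-numbered deviations 0.11, -0.16 and -0.18). A fit with the replicate number as a block gave 1885 lower and 1917 higher genes and changed no call of a member, with Gata1 at adjusted p = 0.0851. For 23 further genes (the called genes of the lists on gonadal factors, partners, targets and the ovarian programme, 3 neighbouring transcripts and the 3 nearest profiles), 366 refits gave 345 with the same call, 20 weaker, 1 stronger and 0 reversed. For 10 genes named though not called, 160 refits gave 15 with a call, 6 of them for Id4, and 22 with the other sign, 8 of them for Dhh. The counts of the lists were less stable and grew in most lists without Pa1-/- replicate 3. Summing close pairs left 0 of 3 spermatogonial and 1 of 3 Leydig calls.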
